A study of Mus musculus with 11 samples.

Results

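The 10 genes described here are receptors, granule proteins and secreted proteins by which neutrophils are recognised: Csf3r, Cxcr2, S100a8, S100a9, Lcn2, Ltf, Camp, Mmp8, Mmp9 and Retnlg. They were picked by symbol from the 46078 genes of the deposited count table, and all 10 were present. The choice of these genes was made with earlier results of the same counts known, so their counts, fold changes and calls are given as a description and no p-value is printed for any of them. The study sorted T cells from the kidneys of wild-type (WT) mice with glomerulonephritis. The animals had been immunised with mouse MPO (myeloperoxidase), itself a neutrophil granule enzyme, and then given a low dose of a sheep globulin against mouse basement membrane, and kidneys were taken at day 21. All 4 sorted populations share this immunisation and injury, and no uninjured or untreated kidney entered the comparisons. The populations were CD4+CD127-PD-1+ (n = 2), CD4+CD127+PD-1- (n = 3), CD8+CD127-PD-1+ (n = 3) and CD8+CD127+PD-1- (n = 3), where CD127 is the interleukin-7 receptor alpha chain and PD-1 an inhibitory receptor of stimulated T cells. Each library is a pool of sorted cells from 3 mice, so the spread between libraries is a spread between pools. The small CD4+CD127-PD-1+ group is due to a pool that did not pass quality control, per the labels.

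Neutrophils are short-lived phagocytes that leave the bone marrow under the control of granulocyte colony-stimulating factor and enter inflamed kidney along gradients of CXC chemokines. Their granules are filled in a fixed sequence during development: enzymes such as myeloperoxidase and elastase first, then lactoferrin, lipocalin-2 and cathelicidin, then gelatinase, so that the transcripts of early granule proteins are largely lost before a cell enters the blood. The cytosol of the mature cell is rich in the calcium-binding pair S100A8 and S100A9 (calprotectin). None of the 4 sort gates was meant to hold neutrophils. Several of the genes are also made elsewhere: monocytes express Csf3r, S100a8 and S100a9, injured tubule cells express Lcn2, and macrophages and stimulated T cells express Mmp9.

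In the GENCODE M21 annotation of GRCm38, S100a8 (ENSMUSG00000056054, chromosome 3, 90668978 to 90670035, plus strand) and S100a9 (ENSMUSG00000056071, chromosome 3, 90692632 to 90695721, minus strand) are neighbours. Csf3r (ENSMUSG00000028859) lies on chromosome 4 at 126024550 to 126044440 and Cxcr2 (ENSMUSG00000026180) on chromosome 1 at 74153989 to 74161246, both on the plus strand. Ltf (ENSMUSG00000032496, 111019271 to 111042767, plus strand), Camp (ENSMUSG00000038357, 109847379 to 109849617, minus strand) and Mmp8 (ENSMUSG00000005800, 7558456 to 7568485, plus strand) are on chromosome 9. Lcn2 (ENSMUSG00000026822, 32384633 to 32388252, minus strand) and Mmp9 (ENSMUSG00000017737, 164940780 to 164955850, plus strand) are on chromosome 2, and Retnlg (ENSMUSG00000022651, 48872621 to 48874496, plus strand) is on chromosome 16. No other annotated gene overlaps any of the 10.

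RefSeq promoter windows (GRCm38.p6, 300 bases each) were matched for 9 of the 10 genes, and Mmp9 had none. Promoters of S100a8, S100a9, Ltf and Mmp8, from genes whose counts moved together across libraries, are shown from the 5′ end of the window, on the strand of the gene, and stop before the first of the RefSeq and GENCODE transcript starts. Capitals mark matches on either strand to TTGCNNAA, a core letter pattern of C/EBP factors, or to GAGGAA, a core letter pattern of PU.1. Both factors are known for driving granulocyte genes, and no capitals overlap between the motifs.
S100a8, chr3:90668821-90668977, plus strand: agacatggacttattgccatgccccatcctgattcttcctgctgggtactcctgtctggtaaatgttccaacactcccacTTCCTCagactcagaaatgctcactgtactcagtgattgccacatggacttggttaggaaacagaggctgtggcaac
S100a9, chr3:90695722-90695971, minus strand: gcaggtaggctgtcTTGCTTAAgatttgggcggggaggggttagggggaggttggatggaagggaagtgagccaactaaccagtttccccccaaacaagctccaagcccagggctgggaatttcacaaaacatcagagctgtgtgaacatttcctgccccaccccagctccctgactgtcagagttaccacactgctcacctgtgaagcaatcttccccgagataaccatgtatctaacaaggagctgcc
Ltf, chr9:111019042-111019270, plus strand: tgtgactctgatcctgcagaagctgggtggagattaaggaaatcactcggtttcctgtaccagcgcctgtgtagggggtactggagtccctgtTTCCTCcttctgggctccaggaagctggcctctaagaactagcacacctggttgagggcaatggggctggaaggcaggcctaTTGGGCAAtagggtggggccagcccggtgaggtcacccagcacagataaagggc
Mmp8, chr9:7558179-7558428, plus strand: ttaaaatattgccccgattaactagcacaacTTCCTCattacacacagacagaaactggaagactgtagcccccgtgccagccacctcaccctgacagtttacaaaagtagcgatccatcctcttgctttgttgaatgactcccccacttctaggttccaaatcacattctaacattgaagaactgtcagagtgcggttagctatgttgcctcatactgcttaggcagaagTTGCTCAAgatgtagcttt
Over the whole windows, the C/EBP pattern was found in 5 of the 9 promoters (Lcn2, Ltf, Mmp8, Retnlg and S100a9), and 10.8% of all 32851 mouse promoters held it. The PU.1 pattern was found in 6 of the 9 (Csf3r, Cxcr2, Lcn2, Ltf, Mmp8 and S100a8), against 28.3% of all promoters. The letters TATAAA were found, on either strand, in 3 of the 9 (Mmp8, S100a8 and S100a9), against 13.6% of all promoters. None of these matches lies within the bases printed above, which end before the first transcript start. These are matches of letters and say nothing about binding.

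The libraries held 10572505 to 16057310 counts and 20514 to 21849 detected genes, and the sort markers and pan-T genes followed the labels: the fitted log2 fold change of Il7r (the CD127 gene) was -4.17 and that of Pdcd1 (the PD-1 gene) 3.41 when CD4 cells of the CD127-PD-1+ state were set over those of the CD127+PD-1- state (CD4 state comparison), and -4.51 and 3.38 when the same was done with CD8 cells (CD8 state comparison). Summed counts of 10 pan-T genes lay between 1705 and 2834 CPM (counts divided by TMM-scaled library size, the edgeR unit) in every library. Other cells' RNA was present too. The 15 monocyte and macrophage genes (such as Lyz2 and Csf1r) summed to 2290 ± 957 CPM in CD4+CD127-PD-1+ libraries and 462 ± 98.9 CPM in CD4+CD127+PD-1- libraries, and to 2480 ± 676 CPM in CD8+CD127-PD-1+ libraries and 430 ± 93.6 CPM in CD8+CD127+PD-1- libraries (SD). Libraries within a population also stood apart. CD8+CD127-PD-1+ replicate 1 carried far fewer neutrophil counts than replicates 2 and 3, and CD8+CD127+PD-1- replicate 2 held 395 counts of the globin gene Hbb-bs and 34 of Mpo, against at most 6 and 3 in every other library. In bulk libraries, fewer cells of a type and less RNA per cell cannot be told apart.

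Together the 10 genes made up little of any library, and most of their counts came from a pair of pools. Their summed raw counts were 786 and 619 in the CD4+CD127-PD-1+ pools, against 189, 184 and 170 in CD4+CD127+PD-1- replicates 1 to 3. In CD8 cells they were 705, 3402 and 4890 in CD127-PD-1+ replicates 1 to 3 and 177, 321 and 55 in CD127+PD-1- replicates 1 to 3. Summed CPM came to 46.5 ± 8.97 (SD, n = 2) in CD4+CD127-PD-1+ cells and 15.2 ± 0.935 (n = 3) in CD4+CD127+PD-1- cells, and to 223 ± 158 (n = 3) in CD8+CD127-PD-1+ cells and 13.1 ± 9.91 (n = 3) in CD8+CD127+PD-1- cells. The CD127-PD-1+ pools were above the CD127+PD-1- pools of the same lineage in every case. Within CD8+CD127-PD-1+ the lowest pool, at 51.5 CPM, sat beside the CD4+CD127-PD-1+ pools, at 52.8 and 40.2 CPM, while the highest reached 364 CPM. Mmp9 held 132, 130 and 56 of the counts in CD4+CD127+PD-1- replicates 1 to 3. Without Mmp9 the sums were 42.5 and 29.0 CPM in CD4+CD127-PD-1+ pools and 4.7, 4.1 and 10.6 CPM in CD4+CD127+PD-1- pools. In CD8 cells they were 49.5, 251 and 357 CPM in CD127-PD-1+ pools and 11.05, 21.9 and 3.26 CPM in CD127+PD-1- pools.

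**Figure D1:**
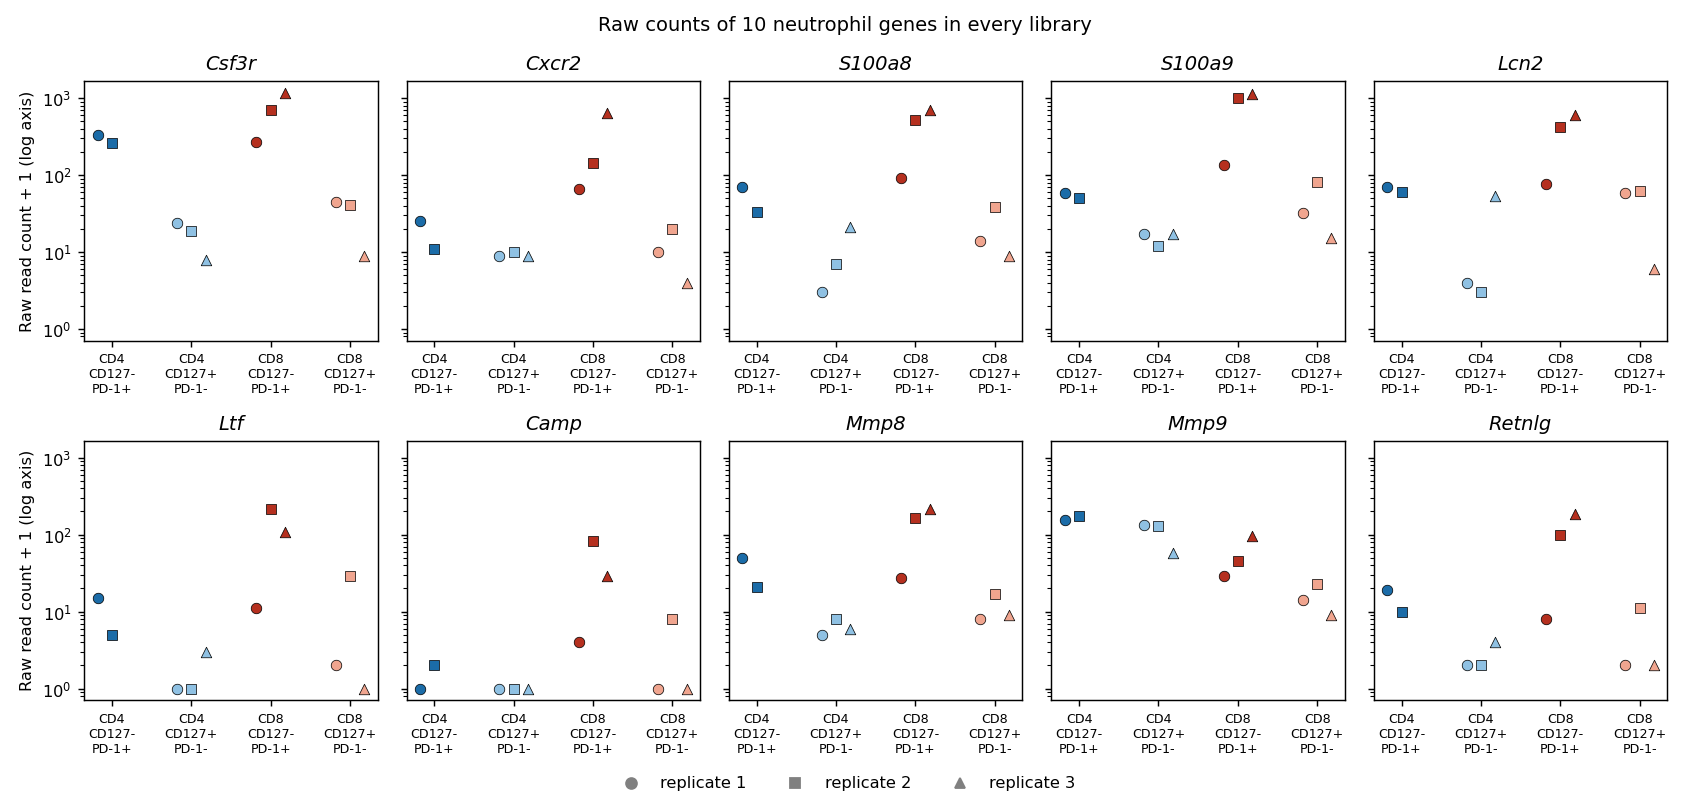
Raw read counts plus 1 (log axis) of the 10 neutrophil genes in each of the 11 libraries; columns of points are the sorted populations and symbols the replicates. CD8+CD127-PD-1+ replicates 2 and 3 hold the highest counts of every gene except Mmp9, whose highest count, 172, is in CD4+CD127-PD-1+ replicate 2.

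Of the 10 genes Csf3r had the highest counts in CD4+CD127-PD-1+ libraries. It encodes the receptor for granulocyte colony-stimulating factor, which drives granulocyte production and survival. Its raw counts were 331 and 262 in CD4+CD127-PD-1+ libraries, against 23, 18 and 7 in CD4+CD127+PD-1- libraries. In CD8 cells they were 268, 706 and 1169 in CD127-PD-1+ libraries, against 44, 40 and 8 in CD127+PD-1- libraries. The groups did not overlap in either lineage. Csf3r averaged 19.6 ± 3.72 CPM in CD4+CD127-PD-1+ pools, against 1.31 ± 0.630 CPM in CD4+CD127+PD-1- pools, a log2 fold change of 3.88 (SE 0.67). The CD8 means were 53.1 ± 33.7 CPM in CD127-PD-1+ and 2.15 ± 1.38 CPM in CD127+PD-1- cells, a log2 fold change of 4.62 (SE 0.61).

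Cxcr2, the receptor through which neutrophils follow the chemokines CXCL1 and CXCL2, did not share this pattern in CD4 cells. It had 24 and 10 counts in CD4+CD127-PD-1+ libraries and 8, 9 and 8 in CD4+CD127+PD-1- libraries, and in CPM the groups overlapped (log2 fold change 0.68, SE 1.06). CD8 libraries had 64, 144 and 646 counts in CD127-PD-1+ cells, against 9, 19 and 3 in CD127+PD-1- cells, with no overlap (4.84, SE 0.86). The count of 646 in CD8+CD127-PD-1+ replicate 3 made up most of the 944 Cxcr2 counts of the whole series.

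S100a8 and S100a9 encode the calprotectin subunits, which sequester metal ions and signal through TLR4. S100a8 had 68 and 32 counts in CD4+CD127-PD-1+ libraries and 2, 6 and 20 in CD4+CD127+PD-1- libraries, and 91, 518 and 707 in CD8+CD127-PD-1+ libraries against 13, 37 and 8 in CD8+CD127+PD-1- libraries. S100a9 had 58 and 50 counts in CD4+CD127-PD-1+ libraries and 16, 11 and 16 in CD4+CD127+PD-1- libraries, and 133, 1014 and 1133 in CD8+CD127-PD-1+ libraries against 31, 81 and 14 in CD8+CD127+PD-1- libraries. For both subunits the CD127-PD-1+ pools lay above the CD127+PD-1- pools in both lineages, by a narrow margin for S100a8 in CD4 cells (lowest 2.08 CPM in CD127-PD-1+, highest 1.86 CPM in CD127+PD-1-). On the log2 scale S100a8 differed by 2.04 (SE 1.00) in CD4 and 4.57 (SE 0.84) in CD8 cells, and S100a9 by 1.56 (SE 0.92) in CD4 and 4.24 (SE 0.75) in CD8 cells. The ratio of S100a8 to S100a9 counts lay between 0.511 and 0.684 in the CD8+CD127-PD-1+ libraries and between 0.419 and 0.571 in the CD8+CD127+PD-1- libraries, but varied with the low counts of CD4 cells, at 1.17 and 0.64 in CD4+CD127-PD-1+ libraries and 0.125, 0.545 and 1.25 in CD4+CD127+PD-1- libraries.

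Read counts depend on transcript length, so levels of different genes were compared per kilobase of annotated exon. In CD8+CD127-PD-1+ cells S100a9 was highest at 108 CPM per kb, followed by S100a8 (47.0), Csf3r (14.7), Retnlg (12.2) and Lcn2 (10.4). Lower still were Cxcr2 (6.94), Mmp8 (4.15), Camp (3.71), Ltf (2.38) and Mmp9 (1.17). In CD4+CD127-PD-1+ cells the order was flatter, with S100a9 at 6.84, Csf3r at 5.44, S100a8 at 4.79 and Mmp9 at 3.04 CPM per kb. The balance of receptor to calprotectin therefore differed between libraries. S100a9 reads per Csf3r read numbered 0.175 and 0.191 in the CD4+CD127-PD-1+ libraries, against 0.611 to 2.29 in the CD4+CD127+PD-1- libraries, and 0.496 to 1.44 in the CD8+CD127-PD-1+ libraries, against 0.705 to 2.02 in the CD8+CD127+PD-1- libraries. Beside this stand the macrophage counts: Csf3r reads per 100 reads of Csf1r, the receptor of macrophage growth factor, numbered 7.37 and 12 in the CD4+CD127-PD-1+ libraries and 16.9, 22.8 and 30.5 in the CD8+CD127-PD-1+ libraries. The part of monocytes and macrophages in the Csf3r counts was not tested.

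Lcn2, Ltf and Camp encode the proteins of the secondary granules. Lcn2 (lipocalin-2, which binds bacterial siderophores) had 70 and 59 counts in CD4+CD127-PD-1+ libraries and 3, 2 and 53 in CD4+CD127+PD-1- libraries. The CD8 libraries had 75, 419 and 602 counts in CD127-PD-1+ cells and 58, 61 and 5 in CD127+PD-1- cells. One CD4+CD127+PD-1- pool thus reached the level of the CD4+CD127-PD-1+ pools and the CD4 groups overlapped in CPM, while the CD8 groups did not. The fitted log2 fold changes were 1.32 (SE 1.17) in CD4 and 3.22 (SE 1.01) in CD8 cells. The 10 kidney tubule genes summed to 44.9 ± 13.9 CPM in CD4+CD127-PD-1+ pools, against 104 ± 50.1 CPM in CD4+CD127+PD-1- pools, and to 40.2 ± 22.8 CPM in CD8+CD127-PD-1+ pools, against 149 ± 132 CPM in CD8+CD127+PD-1- pools, with overlap between the CD8 groups. Of 8 tested tubule genes only Havcr1 was called, lower in CD127-PD-1+ in each lineage (-2.89 in CD4 and -3.25 in CD8 cells). Of all tested genes 11.7% were called in CD4 and 15.6% in CD8 cells, so nothing is read from this count. The part of tubule RNA in the Lcn2 counts was not tested.

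Ltf (lactoferrin, which binds iron) had 14 and 4 counts in CD4+CD127-PD-1+ libraries and 0, 0 and 2 in CD4+CD127+PD-1- libraries. It reached 10, 212 and 108 counts in CD8+CD127-PD-1+ libraries, against 1, 28 and 0 in CD8+CD127+PD-1- libraries. Camp, the precursor of the cathelicidin antimicrobial peptide, was the rarest of the 10, with 0 and 1 count in CD4+CD127-PD-1+ libraries and 0 in all 3 CD4+CD127+PD-1- libraries. A count of 0 there allows up to 3 counts, or 0.23 to 0.279 CPM, which covers counting error only, so no fold is given for Camp in CD4 cells. CD8+CD127-PD-1+ libraries had 3, 82 and 28 Camp counts, against 0, 7 and 0 in CD8+CD127+PD-1- libraries. For both genes the second CD8+CD127+PD-1- pool exceeded the first CD8+CD127-PD-1+ pool, so the CD8 groups overlapped (Ltf 3.55, SE 1.19; Camp 4.01, SE 1.34). That pool is the one with the Hbb-bs and Mpo counts, and the part of those cells in its Ltf and Camp counts was not tested.

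Mmp8 and Mmp9 encode the neutrophil collagenase and gelatinase B, which degrade matrix. Mmp8 had 49 and 20 counts in CD4+CD127-PD-1+ libraries, against 4, 7 and 5 in CD4+CD127+PD-1- libraries (log2 fold change 2.34, SE 0.84). The CD8 libraries held 26, 164 and 216 in CD127-PD-1+ cells and 7, 16 and 8 in CD127+PD-1- cells (3.77, SE 0.71). The groups did not overlap in either lineage. Mmp9 had another distribution, with 154 and 172 counts in CD4+CD127-PD-1+ libraries and 132, 130 and 56 in CD4+CD127+PD-1- libraries, and 28, 44 and 96 in CD8+CD127-PD-1+ libraries against 13, 22 and 8 in CD8+CD127+PD-1- libraries. It averaged 10.8 ± 0.570 CPM in CD4+CD127-PD-1+ pools, against 8.71 ± 3.07 CPM in CD4+CD127+PD-1- pools, and the groups overlapped (0.30, SE 0.48). In CD8 cells the means were 4.16 ± 2.66 CPM in CD127-PD-1+ and 1.01 ± 0.543 CPM in CD127+PD-1- cells, with no overlap (2.03, SE 0.51). Every CD4 library was above every CD8 library of the same state for Mmp9, and for no other gene of the 10.

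Retnlg encodes a resistin-like protein of mouse granulocytes. Its counts were 18 and 9 in CD4+CD127-PD-1+ libraries, against 1, 1 and 3 in CD4+CD127+PD-1- libraries, and 7, 99 and 185 in CD8+CD127-PD-1+ libraries, against 1, 10 and 1 in CD8+CD127+PD-1- libraries. The CD4 groups did not overlap (2.59, SE 1.41), whereas in CD8 cells the second CD127+PD-1- pool was above the first CD127-PD-1+ pool in CPM (4.63, SE 1.06).

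Fitted log2 fold changes were above 0 for all 10 genes in CD8 cells and for the 9 other than Camp in CD4 cells, and more of them were called in CD8 than in CD4 cells. A gene was called at an adjusted p under 0.05 in edgeR's quasi-likelihood fit over 16365 genes, a filter that all 10 passed, Camp only through the CD8+CD127-PD-1+ libraries. In the CD4 state comparison 1 of 10 was called higher (Csf3r) and 0 lower, where 11.7% of all tested genes were called and 6.81% called higher. The median fitted log2 fold change was 2.12 (2.04 without Camp), against 0.023 over all tested genes. In the CD8 state comparison 7 of 10 were called higher (Csf3r, Cxcr2, S100a8, S100a9, Mmp8, Mmp9 and Retnlg) and 0 lower, where 15.6% of all tested genes were called and 9.05% called higher; the median was 4.13 (4.24 without Camp), against 0.0094. Groups did not overlap for 6 genes in CD4 and 7 in CD8 cells, all higher in CD127-PD-1+, beside 21.3% of all tested genes in CD4 and 18% in CD8 cells. Since earlier results of these contrasts were known when the genes were chosen, nothing is read from these shares. Without CD8+CD127-PD-1+ replicate 1 the CD8 count was 10, without replicate 3 it was 5, and limma-voom called 3 in CD8 and 0 in CD4 cells.

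**Figure D2:**
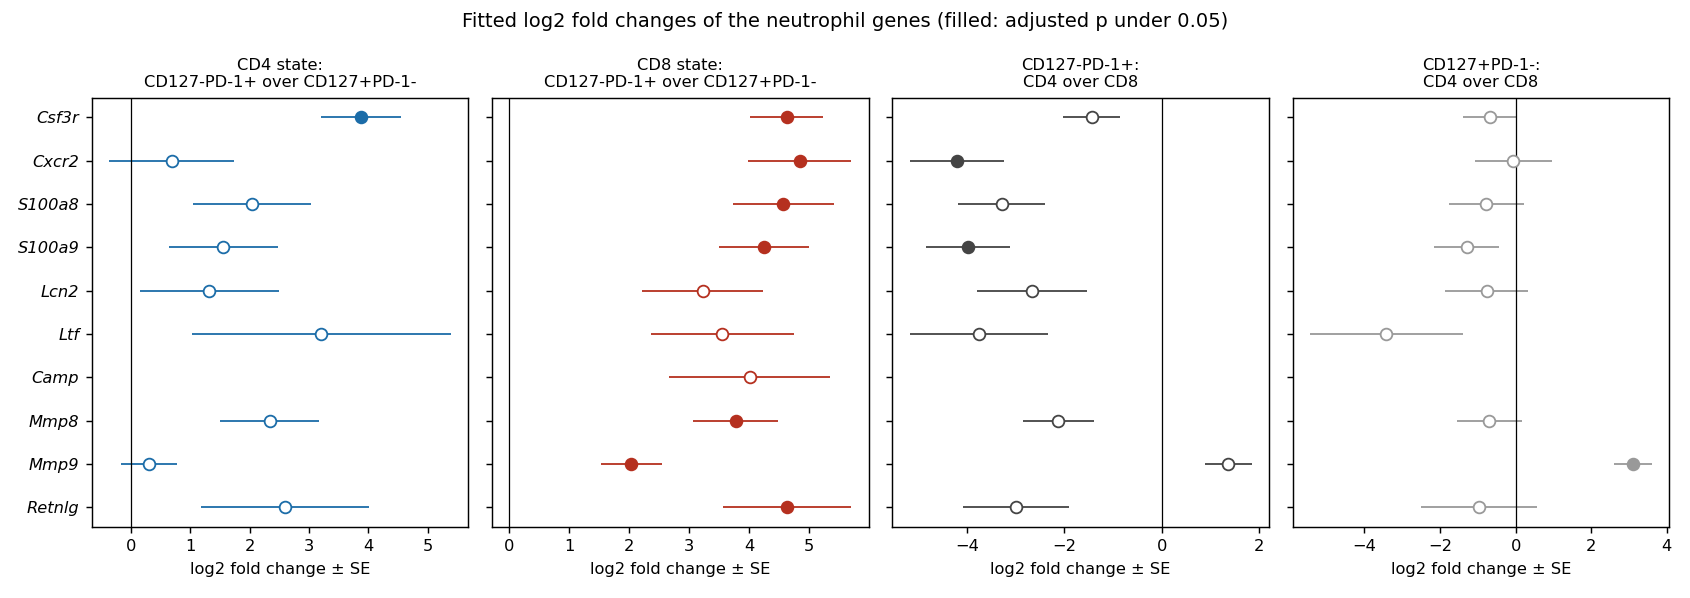
Fitted log2 fold changes with SE for the 10 neutrophil genes in 4 comparisons; filled points passed the adjusted p of 0.05, and Camp is drawn only where it has a fold that can be read. In the CD8 state panel 7 points are filled, in the CD4 state panel only Csf3r is, and Mmp9 is the one gene on the positive side in both lineage panels.

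Other RNA moved with these values. Of the 15 monocyte and macrophage genes, 13 were called higher in CD127-PD-1+ CD4 cells and 14 in CD127-PD-1+ CD8 cells, with 0 lower in each, and no gene of the list was at 0 in a group. Those not called were Ccr2 in CD4 cells (-0.09) and Ly6c2 in CD4 (-0.48) and CD8 cells (-0.58). In CD8 cells Ccr2 rose by only 0.95. Of 7 B and plasma cell genes 3 rose in CD8+CD127-PD-1+ cells (Cd79a, Cd79b and Ms4a1), where the list summed to 160 ± 74.4 CPM, against 34 ± 25.5 CPM in CD8+CD127+PD-1- cells; in CD4 cells 0 were called. Eosinophil, basophil and mast cell genes summed to 19.2 ± 9.07 CPM in CD8+CD127-PD-1+ pools, against 10.2 ± 6.19 CPM in CD8+CD127+PD-1- pools, with 1 of 3 tested genes called higher (Ear2) and the basophil protease gene Mcpt8 at 0 in every library. Mitochondrial ribosomal RNA took 38.9 ± 2.81% of counts in CD8+CD127-PD-1+ libraries and 30.7 ± 1.82% in CD8+CD127+PD-1- libraries. The 7 plasmacytoid dendritic cell genes summed to 253 ± 211 CPM in CD4+CD127-PD-1+ libraries, against 840 ± 349 CPM in CD4+CD127+PD-1- libraries, and to 157 ± 17.5 CPM in CD8+CD127-PD-1+ libraries, against 617 ± 254 CPM in CD8+CD127+PD-1- libraries, with 4 of 7 called lower in CD4 and 3 in CD8 cells. Of 4 tested endothelial and podocyte genes 2 were called lower in each lineage (Pecam1 and Cdh5). Flt1 of that list lay wholly higher in CD8+CD127-PD-1+ pools but was not called (1.38, SE 0.61). Beside these lists, 11.7% of all tested genes were called in the CD4 state comparison, 6.81% of them all being called higher. In the CD8 state comparison 15.6% of all tested genes were called and 9.05% called higher. Pf4, a platelet gene, was called higher in both, by 5.60 (SE 0.87) in CD4 and 4.73 (SE 0.80) in CD8 cells. Itga2b, from the same list, went the other way. It was called lower in CD4 cells (-2.89, SE 0.67) and not called in CD8 cells (-1.19, SE 0.51), so the platelet genes did not move together. The part of each in the neutrophil gene counts was not tested. Neutrophil gene counts per 100 macrophage counts numbered 1.78 and 2.49 in CD4+CD127-PD-1+ libraries and 2.93 to 4.03 in CD4+CD127+PD-1- libraries, and 3.03, 8.72 and 12.9 in CD8+CD127-PD-1+ libraries and 2.63, 7.2 and 0.748 in CD8+CD127+PD-1- libraries. In CD127+PD-1- libraries those macrophage counts were mostly Ccr2 and Ly6c2, so the ratios cannot be compared between states. S100a9 reads per 100 Csf1r reads numbered 1.29 and 2.29 in CD4+CD127-PD-1+ libraries and 12 to 66.7 in CD4+CD127+PD-1- libraries. In CD8 cells they numbered 8.36, 32.8 and 29.5 in CD127-PD-1+ libraries and 33.3 to 49.1 in CD127+PD-1- libraries. The macrophage sums were 2967 and 1613 CPM in CD4+CD127-PD-1+ libraries and 1698, 2912 and 2819 CPM in CD8+CD127-PD-1+ libraries.

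**Figure D3:**
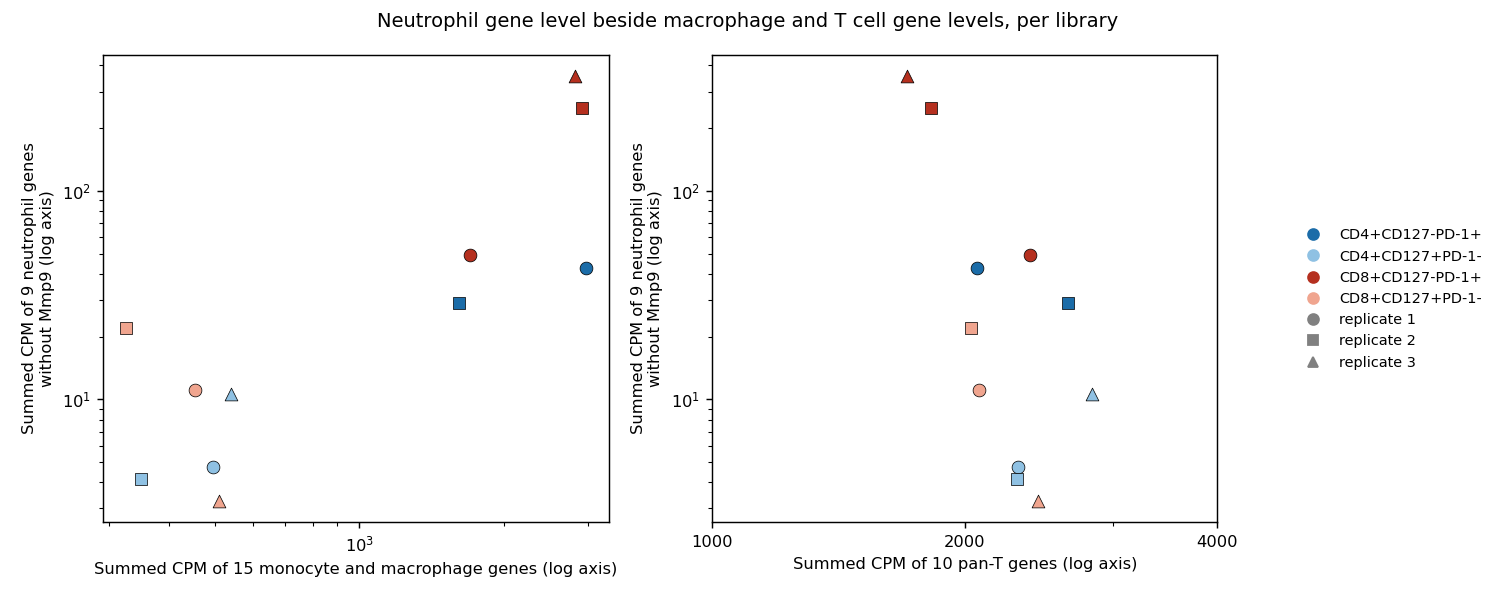
Summed CPM of 9 neutrophil genes (Mmp9 left out; log axis) against summed CPM of 15 monocyte and macrophage genes (left) and 10 pan-T genes (right), 1 point per library, on log axes. CD8+CD127-PD-1+ replicates 2 and 3, at 251 and 357 CPM, lie above all other libraries, the next of which is CD8+CD127-PD-1+ replicate 1 at 49.5 CPM.

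The CD4 and CD8 populations were then compared within each state. With CD4 over CD8 in CD127-PD-1+ cells, the median fitted log2 fold change of the 10 genes was -3.15 (-3.00 without Camp), against -0.015 over all tested genes. Called lower in CD4 were 2 of the 10, Cxcr2 (-4.22, SE 0.97) and S100a9 (-3.98, SE 0.87), where 2.44% of all tested genes were called and 0.843% called lower. Cxcr2 averaged 1.13 ± 0.682 CPM in CD4+CD127-PD-1+ pools, against 21.2 ± 23.5 CPM in CD8+CD127-PD-1+ pools, and S100a9 averaged 3.57 ± 0.463 CPM in the CD4 and 56.6 ± 40.8 CPM in the CD8 pools of that state. Neither gene overlapped between the groups, nor did S100a8 and Lcn2, all lower in CD4, beside 13.5% of all tested genes. Mmp9 alone of the 10 lay wholly higher, beside 14.3% of all tested genes. Camp, with 0 and 1 counts in CD4 against 3, 82 and 28 in CD8 pools, did not overlap either. It passed the filter only through these CD8 pools, so it is not set beside that share. Csf3r differed by -1.44 (SE 0.59) and its groups overlapped. The count of 2 became 5 without CD8+CD127-PD-1+ replicate 1 and 0 without any other library of the comparison, and limma-voom called 0.

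In CD127+PD-1- cells Mmp9 alone of the 10 was called, higher in CD4 (3.10, SE 0.51), where 4.42% of all tested genes were called and 2.76% called higher. It was the only gene of the 10 whose groups did not overlap there, and 11.9% of all tested genes lay wholly higher in CD4. The median over the 10 was -0.77, against -0.012 over all tested genes. The state-by-lineage term tested directly whether the state change differed between CD4 and CD8 cells. It called 0 of the 10 genes with edgeR's quasi-likelihood test, 0 with DESeq2 and 0 with limma-voom. At the same adjusted threshold edgeR called 0.00611% of all tested genes. Unadjusted p in edgeR was under 0.05 for 3 of the 10, and the share of all genes at that looser threshold is not given here. The largest fitted difference was that of Cxcr2 (-4.16, SE 1.39). The larger changes in CD8 cells are therefore not shown to differ from those in CD4 cells, and the state comparisons and the lineage comparisons share libraries.

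Within CD8+CD127-PD-1+ the 3 pools differed in amount and in make-up. Replicate 2 over replicate 1 gave a CPM ratio of 7.8 for S100a9, 21.7 for Ltf and 27.9 for Camp, but 2.69 for Csf3r and 1.61 for Mmp9, whose 95% counting interval ran between 0.978 and 2.68. Replicate 3 over replicate 2 gave 1.11 for S100a9 (interval 1.02 to 1.21) and 1.65 for Csf3r (1.5 to 1.81). Cxcr2 was further above, at 4.47 (3.73 to 5.39). The secondary granule genes Ltf and Camp ran the other way, at 0.508 (0.399 to 0.643) and 0.34 (0.213 to 0.528), whereas Lcn2 was at 1.43. Ltf reads per 100 Cxcr2 reads accordingly numbered 15.6, 147 and 16.7 in the 3 pools. These intervals cover counting error only and compare libraries, not conditions.

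**Figure D4:**
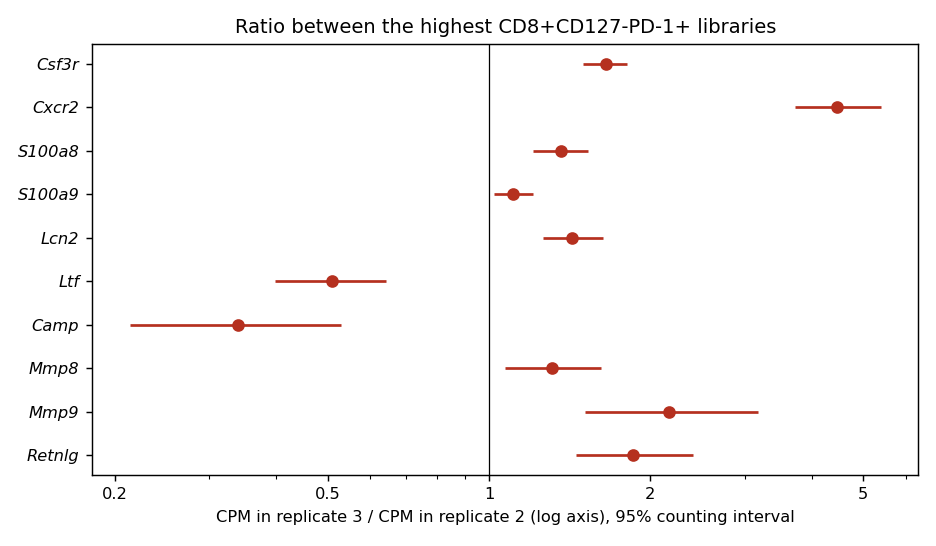
Ratio of CPM in CD8+CD127-PD-1+ replicate 3 to that in replicate 2 (log axis) for each of the 10 genes, with 95% counting intervals. Ltf and Camp lie below 1, at 0.508 and 0.34, and Cxcr2 lies highest, at 4.47.

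Other neutrophil genes were followed in 37 further symbols, of which 23 passed the filter on low counts. Like the 10, these genes were chosen with earlier results of these data known, so their calls and p-values are given as a description. The 5 primary granule genes, which are transcribed in the bone marrow stages, were all too low to test: outside CD8+CD127+PD-1- replicate 2, no library had more than 3 counts of Mpo or more than 4 of Elane, the elastase gene. That 1 library held 34 Mpo and 10 Elane counts, together with 117 counts of the granule gene Ngp, which the other CD8+CD127+PD-1- pools had at 0 and 3. Of the 23, 7 passed that filter only through the CD8+CD127-PD-1+ libraries, where they are high (Ly6g, Fpr1, Fpr2, Clec4d, G0s2, Stfa2l1 and Asprv1), and they are given as counts with no p. In the CD8 state comparison 11 of the other 16 rose and 0 fell in CD127-PD-1+ cells by edgeR's quasi-likelihood test with Benjamini-Hochberg adjustment, where 15.6% of all tested genes were called and 9.05% called higher. All 4 receptor and surface genes among the 16 rose: Trem1 (4.45, SE 0.71, adjusted p = 0.00161), Sirpb1c (4.06, adjusted p = 0.000394), the decoy receptor gene Il1r2 (2.84, adjusted p = 0.00339) and Ptafr, the receptor of platelet-activating factor (2.50, adjusted p = 0.00183). The formyl peptide receptor gene Fpr2 had 33, 50 and 85 counts in CD8+CD127-PD-1+ libraries, against 0, 3 and 0 in CD8+CD127+PD-1- libraries. Clec4d, a C-type lectin gene, had 32, 170 and 233 counts in CD8+CD127-PD-1+ libraries, against 5, 4 and 4 in CD8+CD127+PD-1- libraries. Ly6g, which encodes the surface antigen by which mouse neutrophils are usually gated, had 1, 25 and 34 counts in CD8+CD127-PD-1+ libraries, against 0, 2 and 1 in CD8+CD127+PD-1- libraries, so that the groups overlapped, and at most 4 counts in any CD4 library.

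Of the other granule genes, 3 of 7 rose in CD8+CD127-PD-1+ cells: Chil3 (4.14, adjusted p = 0.00145), the haptoglobin gene Hp (3.82, adjusted p = 0.00171) and Pglyrp1, a peptidoglycan-binding protein gene that T cells also express (0.86, adjusted p = 0.0164). Of the genes of mature or stimulated cells, 4 of 5 rose: Irg1 (5.76, adjusted p = 0.000311), Il1b (4.16, adjusted p = 0.000709), the histidine decarboxylase gene Hdc (4.00, adjusted p = 0.00177) and Ifitm6 (3.84, adjusted p = 0.0016). The stefin gene Stfa2l1 had 2, 35 and 58 counts in CD127-PD-1+ libraries, against 1, 0 and 0 in CD127+PD-1- libraries. Ngp, with 66, 629 and 356 counts against 0, 117 and 3, was not called (adjusted p = 0.0843). Macrophages also express several of these genes, Il1b and Irg1 among them.

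In CD4 cells 3 of the 23 were called, where 11.7% of all tested genes were called, a share close to that of the list: Il1b (3.32, SE 0.58, adjusted p = 0.0047) and Pglyrp1 (0.90, SE 0.23, adjusted p = 0.028) rose in CD127-PD-1+ cells, and Slpi, a protease inhibitor gene, fell by 2.46 (SE 0.61, adjusted p = 0.0227). The median was 1.05, against 0.023 over all tested genes. Slpi had 14 and 12 counts in CD4+CD127-PD-1+ libraries, against 93, 38 and 40 in CD4+CD127+PD-1- libraries. With CD4 over CD8 in CD127-PD-1+ cells, the 16 genes that pass the filter without the CD8+CD127-PD-1+ libraries were compared. Irg1, Hp, Slpi, Sirpb1c, Chil3 and Hdc were called lower in CD4 and 0 higher, where 0.843% of all tested genes were called lower. Their adjusted p in edgeR's quasi-likelihood test lay between 0.0156 for Irg1 and 0.0469 for Hdc. Clec4d, which passed the filter only through the CD8 pools, had 5 and 13 counts in CD4 pools, against 32, 170 and 233 in CD8 pools. With Clec4d the count was 7, and it became 0 without CD4+CD127-PD-1+ replicate 2, by limma-voom and with the compared groups only. In CD127+PD-1- cells, where 4.42% of all tested genes were called and 2.76% called higher, 2 of the 23 were higher in CD4. They were Mmp25, a membrane-bound metalloproteinase gene (3.87, adjusted p = 0.00119 in edgeR), and Il1r2 (2.94, adjusted p = 0.00651). Mmp25 thus stood beside Mmp9 as a protease gene that was higher in CD4+CD127+PD-1- than in CD8+CD127+PD-1- cells, with 165, 165 and 345 counts in CD4 libraries, against 29, 19 and 9 in CD8 libraries. Of the 23 genes, the state-by-lineage term called 0 with edgeR, 5 with DESeq2 and 0 with limma-voom. Of all genes, DESeq2 called 60 for this term and edgeR called 1. In edgeR 9 of the 23 had an unadjusted p under 0.05, and the share of all genes at that looser threshold is not given here.

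**Figure D5:**
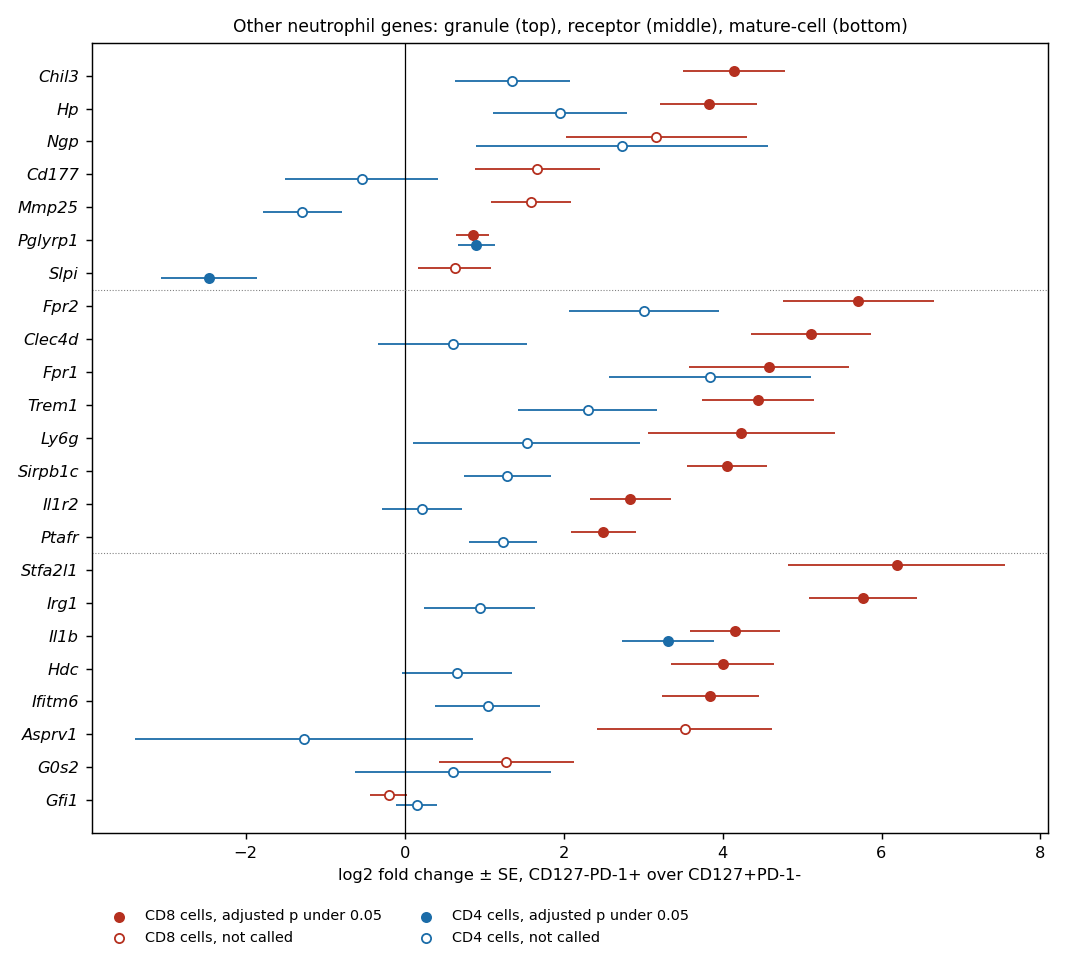
Fitted log2 fold changes with SE of the 23 tested neutrophil genes outside the 10, CD127-PD-1+ over CD127+PD-1-, in CD8 (red) and CD4 cells (blue); filled points passed the adjusted p of 0.05, and Stfa2l1 has no CD4 point because its CD127+PD-1- libraries are all at 0. In CD8 cells 16 points are filled, of which 11 belong to genes that pass the filter on low counts without the CD8+CD127-PD-1+ libraries; in CD4 cells Il1b, Pglyrp1 and Slpi are filled.

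Ligands and partners of the 10 proteins were measured in the same libraries, 13 of 16 genes passing the filter. This list too was chosen with earlier results known, so its calls and p-values are given as a description. Csf3, the ligand of the Csf3r product, was at 0 in 9 libraries and had 3 and 1 counts in CD8+CD127-PD-1+ replicates 1 and 3. The CXCR2 ligand gene Cxcl2 rose in CD127-PD-1+ cells of both lineages (edgeR with Benjamini-Hochberg adjustment). It had 217 and 281 counts in CD4+CD127-PD-1+ libraries, against 38, 34 and 39 in CD4+CD127+PD-1- libraries (2.39, SE 0.54, adjusted p = 0.0159). In CD8 cells it had 201, 904 and 1107 counts in CD127-PD-1+ libraries, against 17, 13 and 24 in CD127+PD-1- libraries (5.44, SE 0.58, adjusted p = 0.00018). Cxcl1, which passed the filter only through CD127-PD-1+ libraries, had 6 and 22 counts in CD4+CD127-PD-1+ libraries, against 0, 0 and 1 in CD4+CD127+PD-1- libraries, and 6, 24 and 11 in CD8+CD127-PD-1+ libraries, against 0, 0 and 1 in CD8+CD127+PD-1- libraries. Cxcl3 was called in CD8 cells, from 1, 25 and 7 counts in CD127-PD-1+ libraries, against 0, 0 and 1 in CD127+PD-1- libraries (adjusted p = 0.047), and not in CD4 cells (adjusted p = 0.547), and its state-by-lineage difference had an adjusted p of 0.922. Tlr4, the receptor for calprotectin, rose by 4.16 (SE 0.41, adjusted p = 0.000208) in CD4 and by 4.12 (SE 0.38, adjusted p = 0.000103) in CD8 cells, and Timp2, an inhibitor of matrix metalloproteinases, by 1.37 (adjusted p = 0.0103) in CD4 and 0.87 (adjusted p = 0.0448) in CD8 cells. Of all tested genes 6.81% were called higher in the CD4 state and 9.05% in the CD8 state comparison. The macrophage gene Csf1r rose by 5.31 in CD4 and 4.99 in CD8 cells. The part of monocytes and macrophages in the ligand and partner counts was not tested.

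Il17a and Il17f, whose products act on epithelium to call in neutrophils, were compared between lineages. Il17a had 67 and 797 counts in CD4+CD127-PD-1+ libraries, which differ widely, and 0 in all 3 CD8+CD127-PD-1+ libraries (adjusted p = 0.0072 in edgeR's quasi-likelihood test). In CD127+PD-1- cells it had 269, 141 and 324 counts in CD4 libraries, against 4, 0 and 5 in CD8 libraries (6.59, SE 1.09, adjusted p = 0.00791). Il17f had 16 and 66 counts in CD4+CD127-PD-1+ libraries, against 4, 5 and 4 in CD8+CD127-PD-1+ libraries (3.03, SE 0.66, adjusted p = 0.036), and was not called in CD127+PD-1- cells (2.16, SE 0.59, adjusted p = 0.0623). Csf2, the gene of granulocyte-macrophage colony-stimulating factor, was higher in CD4 in both states (2.65, adjusted p = 0.0227, in CD127-PD-1+ and 2.92, adjusted p = 0.00652, in CD127+PD-1- cells). In CD127-PD-1+ cells Il17a was thus higher in CD4 while Cxcr2 and S100a9 were lower in CD4.

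Across all 11 libraries, log2 CPM of the 9 genes other than Mmp9 correlated with each other at Pearson r between 0.704 (Csf3r with Camp) and 0.976 (Mmp8 with Retnlg), whereas Mmp9 correlated with them at -0.0366 to 0.299. The points share the sorted populations and the same high libraries, so these values are a description. Among the tested genes most like Csf3r were Dpep2 (r = 0.983) and Rcan1 (0.983). Those most like S100a9 were Rgl2 (0.976), RP23-336O18.3 (0.967) and the glycogen phosphorylase gene Pygl (0.961), and those most like S100a8 were Fpr1 (0.962), Rgl2 (0.961) and Mmp8 (0.958).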

How the data were processed

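The authors deposited a table of raw read counts for 46078 genes, not normalised. STAR, featureCounts and GRCm38 are named per the submitters' processing notes. Tool versions, gene annotation and strandedness were not given in the sources used here. Per the labels' protocols, 2 ng of total RNA per population was amplified by single primer isothermal amplification and sequenced as 75-base single reads; reads carry no molecular identifiers, so intervals cover counting error only. Of the table's columns 11 matched labelled samples and 1 without a label was not used.

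The deposited counts were fitted in R 4.3.3 with edgeR 4.0.16 (filterByExpr, TMM, quasi-likelihood, a mean per population, all 11 libraries together; common biological coefficient of variation 0.244), which tested 16365 genes. The 5 comparisons were CD127-PD-1+ over CD127+PD-1- in CD4 and in CD8 cells, CD4 over CD8 in each state, and the difference of the state changes. Adjustment was by Benjamini-Hochberg across the whole table, at 0.05. CPM use TMM-scaled library sizes and are mean ± SD over libraries; log2 CPM for correlations used a prior count of 2. Each SE is the log2 fold change over the root of its F statistic. The fit was run on simulated data with changes set in randomly drawn genes. Its outcome is not given here, and it did not imitate low counts carried by a pair of pools. DESeq2 1.42.0, limma 3.58.1, other scaling, no filter, compared groups only, mitochondrial genes left out, replicate blocks and leaving out each library were alternatives. Replicate libraries differed beyond counting noise (chi-square per degree of freedom 11.1 to 29.2), and labels gave no batch or date.

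The 10 genes, all lists and the rule for naming others were chosen with earlier results of these data known. Named beside the 10 were called genes of the neutrophil, ligand and partner lists, genes of the cell type lists, and the 3 genes most correlated with each of the 3 most counted of the 10; Elane, Ly6g, Fpr2, Csf3 and Mcpt8 were named for their role or count. A gene that the rule on correlation selects is not reported here. Which genes pass the filter on low counts without the CD127-PD-1+ libraries of 1 lineage was counted after seeing the data. Coordinates came from GENCODE M21, which held 45143 of the 46078 identifiers, and promoters from RefSeq (GRCm38.p6).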

Additional observations from a re-analysis of the deposited data

How the results depend on the processing

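In the CD8 state comparison the 10 genes had 7 calls, 7 to 10 under every other setting with all libraries except limma-voom, which gave 3. Under DESeq2 the calls were 2 of the 10 and 7 of the other neutrophil genes in the CD4 state comparison; 5 ligand and partner genes and 717 of all genes (400 in edgeR) with CD4 over CD8 in CD127-PD-1+ cells; 1192 of all genes (723 in edgeR) in CD127+PD-1- cells; and 5 other neutrophil genes, 1 ligand or partner gene and 60 of all genes (1 in edgeR) for state by lineage. Under limma-voom they were 0 of the 10 and 2 ligand and partner genes in CD4 state; 0 of the 10, 0 other neutrophil genes and 1 ligand or partner gene in CD127-PD-1+ lineage; and 1 ligand or partner gene in CD127+PD-1- lineage. With no filter on low counts they were 3 of the 10 and 8 other neutrophil genes in CD4 state; 10 of the 10, 11 other neutrophil genes, 5 ligand and partner genes and 791 of all genes in CD127-PD-1+ lineage; 4 other neutrophil genes and 1215 of all genes in CD127+PD-1- lineage; and 1 of the 10, 6 other neutrophil genes, 1 ligand or partner gene and 85 of all genes for state by lineage. With the compared groups only they were 3 of the 10 in CD4 state, 3 ligand and partner genes in CD8 state, and 0 of the 10, 0 other neutrophil genes, 0 ligand and partner genes and 211 of all genes in CD127-PD-1+ lineage. Leaving mitochondrial genes out of the library size changed the summed CPM of the 10 to 70.8 in CD4+CD127-PD-1+, 23.7 in CD4+CD127+PD-1-, 341 in CD8+CD127-PD-1+ and 20.5 in CD8+CD127+PD-1- cells, since each total is then smaller. The cause of the other shifts was not tested.

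The replicate numbers were not taken as pairs, since not every same-numbered pair reached a correlation of 0.1: deviations of same-numbered libraries correlated at -0.209 to 0.318 over 15 pairs by title number and at 0.00109 to 0.325 over 12 pairs by description number (10 above 0.1, median 0.153, against 4 of 33 pairs with different numbers, median -0.0815). Of 11 libraries, 6 correlated best with their own title number and 8 with their own description number, a hint from the data and not the design. With the title number as a replicate block, CD127-PD-1+ lineage gave 1 call among the 10 and 2 among the other neutrophil genes, state by lineage gave 0 among all genes, and the uncalled Ltf state-by-lineage difference turned to 0.39. With the description number as a replicate block, CD127-PD-1+ lineage gave 5 calls among the 10 and 1 among ligand and partner genes, and the uncalled Cxcr2 difference in CD127+PD-1- lineage was 0.0048, against -0.06 in the fit without a block; limma-voom gave 0.31.

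Leaving out each library in turn, calls among the 10 ranged from 1 to 1 in CD4 state, 5 to 10 in CD8 state, 0 to 5 in CD127-PD-1+ lineage, 1 to 1 in CD127+PD-1- lineage and 0 to 0 for state by lineage. Among other neutrophil genes they ranged from 1 to 3, 13 to 17, 0 to 10, 2 to 3 and 0 to 1 in the same order of comparisons, and among ligand and partner genes from 2 to 4, 3 to 5, 1 to 3, 2 to 3 and 0 to 1. The uncalled folds that changed sign were those of Cxcr2 in CD4 state (-0.10 to 1.21), of Cxcr2 (-0.50 to 0.76), S100a8 (-2.10 to 0.15), Ltf (-6.29 to 0.60) and Retnlg (-1.74 to 0.95) in CD127+PD-1- lineage, all 4 of these without CD8+CD127+PD-1- replicate 2, and the state-by-lineage differences of Ltf (-4.35 to 2.51) and Lcn2 (-2.48 to 1.14, without CD4+CD127+PD-1- replicate 3). Depth limits genes such as Camp, Ltf, Retnlg, Ly6g, Stfa2l1, Fpr1 and Cxcl1, of which several libraries held few reads.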
